A study of Mus musculus with 12 samples.

Results

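Solute carriers are the membrane proteins that move nutrients, metabolites, ions and metals across the plasma membrane and the membranes of organelles, and their gene symbols begin with Slc followed by a family number. The genes described here were chosen by symbol and by level: of 41214 genes in the deposited table, 377 carry a solute carrier symbol, and 188 of these reached a mean of 5 CPM (counts over the library total, scaled to 1000000) or more in at least 1 of 4 endothelial groups of the fetal mouse heart. They belong to 43 families on 20 chromosomes, and 187 of the 188 are annotated as protein coding. All 188 passed the filter on low counts. At the limit, the 4 genes just outside were Slc6a17, Slc35g1, Slc16a4 and Slc9a9, with highest group means of 4.271, 4.528, 4.781 and 4.992 CPM, and the 4 just inside were Slc12a8, Slc16a9, Slc38a5 and Slc16a7, with 5.164, 5.253, 5.421 and 5.462 CPM. A total of 148 members reached 5 CPM in all 4 groups, 11 in 3 groups, 16 in 2 and 13 in 1. The symbols also cover a few genes that are not transporters, such as the scaffold proteins Slc9a3r1 and Slc9a3r2 and the transcribed pseudogene Slc2a4rg-ps, and these are kept with the orphan carriers.

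RNA was sequenced from 2 endothelial populations of the ventricles at 2 stages, in 12 libraries: 2 E17 coronary, 2 E17 endocardial, 4 E13 coronary and 4 E13 endocardial. The E17 embryos, taken at E17.5, carried 3 alleles: Nes-Gfp(Tg/0), the inducible Cre Nes-CreER(Tg/0), and the Tomato reporter R26(tom/+). They received 0.1 ug of tamoxifen at E15.5. The E13 embryos, taken at E13.5, carried Nes-gfp(Tg/0) alone. All groups thus share the Nes-gfp transgene, and the Cre, the reporter and tamoxifen were present at E17 only. Only ventricles were used. They were dissociated with liberase, and living CD31+ cells without Ter119 or CD45 were sorted. The E13 coronary gate was GFP+ and the E13 endocardial gate GFP-low and Emcn-high. At E17 the endocardial gate is described as GFP+ alone. For the E17 coronary cells 2 Emcn-low gates are described, a Tomato+ gate for arteries and capillaries and a Tomato-negative, GFP-low gate for veins, and the labels used here do not say which gate gave the E17 coronary libraries. Stage therefore cannot be told apart from genotype, tamoxifen and gate in the comparisons of E17 with E13. The labels give each library a batch, and each batch holds 1 coronary and 1 endocardial library, with 2 batches at E17 and 4 at E13. The number of embryos behind a library is not in the labels. The p-values hence cover spread between libraries alone, which may be technical.

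The coronary vessels line the heart muscle with capillaries, arteries and veins, and the endocardium lines the chambers. Endothelial cells take up glucose through facilitative glucose carriers, release lactate with protons through monocarboxylate carriers, and import large neutral amino acids through heterodimers of a light and a heavy chain. In the capillaries of several organs they also carry solutes through the cell for the tissue behind it. Zinc enters the cytosol through ZIP carriers (Slc39) and leaves it through ZnT carriers (Slc30). Most carriers of the Slc25 family work in the inner mitochondrial membrane.

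Total deposited counts were 14973633 to 17746457 in the E17 coronary libraries, 16371834 to 19168912 in the E17 endocardial ones, 17677860 to 21560343 in the E13 coronary ones and 17395783 to 27360653 in the E13 endocardial ones. Members took 0.92% to 0.953% of the counts of the E17 coronary libraries, 0.885% to 0.903% in E17 endocardial, 0.89% to 0.932% in E13 coronary and 0.883% to 0.907% in E13 endocardial libraries. The labelled populations were checked against their markers. The summed CPM of 8 endocardial markers was 410.1 and 438.2 in E17 coronary, 6380 and 6887 in E17 endocardial, 1638 to 1985 in E13 coronary and 5115 to 5459 in E13 endocardial libraries. The sum of 8 heart capillary markers was 8793 and 11331, 1100 and 1175, 1652 to 2892 and 1205 to 1365 CPM in the same order of groups. Fibroblast and mural markers were also present. The sum of 10 fibroblast markers was 4874 and 2220 CPM in E17 coronary replicates 1 and 2, 2474 and 2234 CPM in E17 endocardial, 2747, 5389, 7169 and 4997 CPM in E13 coronary replicates 1 to 4 and 1850 to 2082 CPM in E13 endocardial libraries. The 9 mural markers summed to 857.6 to 1117 CPM in E17 coronary, 176.7 to 177.2 in E17 endocardial, 377.4 to 733.1 in E13 coronary and 244.6 to 267 in E13 endocardial libraries. Pan-endothelial markers summed to 9603 and 10943, 10203 and 10735, 5601 to 7362 and 8635 to 9562 CPM in the same order of groups. Epicardial markers summed to 141.4 and 151.2, 13.55 and 14.85, 79.92 to 93.91 and 17.25 to 20.97 CPM. Erythroid markers summed to 533.7 and 394.1, 472.8 and 80.1, 59.77 to 789 and 22.01 to 496.7 CPM. The part of such RNA in the levels of members was not tested. In sorted bulk samples, fewer cells of a type and less RNA per cell cannot be told apart.

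Levels below are CPM scaled with TMM factors, and differences are log2 fold changes with their standard error and Benjamini-Hochberg adjusted p over 15171 genes from edgeR's quasi-likelihood test. A positive value means higher in coronary than in endocardial cells, or higher at E17 than at E13. A member that entered the set only through the group where it is high had to differ between groups. Members at 5 CPM in only some groups are therefore given by their levels, with no test, and the counts over all members are a description.

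Between E17 coronary and E17 endocardial cells, 48 members were called higher at an adjusted p under 0.05 and 69 lower, which is 25.5% and 36.7% of the 188. The same rule called 26.5% and 26.1% of all genes tested, and 31.5% and 28.9% of the 11522 genes at 5 CPM in at least 1 group. Between E13 coronary and E13 endocardial cells, 57 members were called higher and 74 lower (30.3% and 39.4%), beside 30.1% and 29.9% of all genes tested and 32.1% and 34.5% of genes at 5 CPM. In coronary cells, 52 members were called higher and 60 lower at E17 than at E13 (27.7% and 31.9%), beside 24.6% and 25.6% of all genes and 29.6% and 26.9% of genes at 5 CPM. In endocardial cells, 40 were called higher and 24 lower at E17 (21.3% and 12.8%), beside 16.2% and 15.6% of all genes and 19.4% and 19.3% of genes at 5 CPM. Both the 40 and the 24 became smaller when either E17 endocardial replicate 1 or replicate 2 was left out. The signed coronary minus endocardial log2 difference was higher at E17 than at E13 for 34 members and lower for 57 (18.1% and 30.3%). The same contrast called 16.2% and 16.5% of all genes and 20.5% and 17.9% of genes at 5 CPM. Lower here includes members such as Slc2a10 and Slc12a7, whose gap between the populations was wider at E17. The 34 became 19 without E17 endocardial replicate 1 and 21 without E17 coronary replicate 2. The median log2 difference of members in the 5 comparisons, in this order, was −0.15, −0.04, −0.06, 0.08 and −0.11, against −0.01, −0.02, −0.02, 0.00 and 0.00 for all genes tested.

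**Figure D1:**
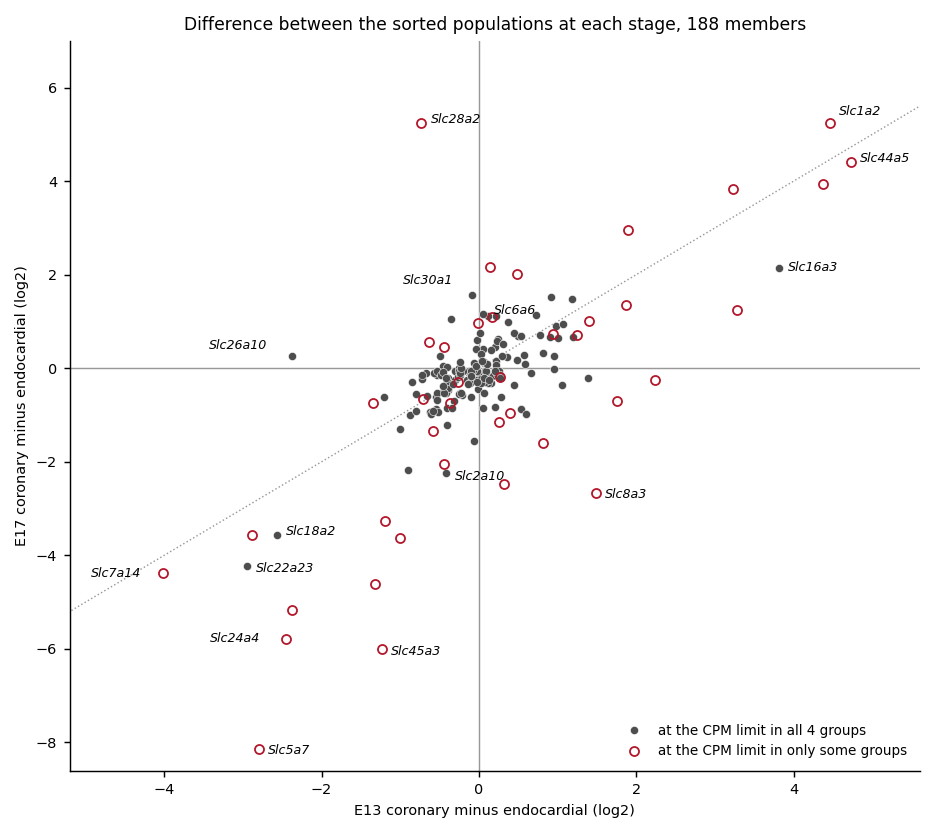
Log2 difference between coronary and endocardial cells for the 188 members, at E13 on the horizontal axis and at E17 on the vertical axis, with members at 5 CPM in all 4 groups as filled points and the 40 others as open red points; the dotted line marks equal differences. Slc22a23 lies low on both axes (−4.23 at E17, −2.95 at E13), Slc16a3 is far to the right at E13 (3.81), and Slc28a2 stands high at E17 (5.24) and below zero at E13 (−0.73).

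Grouped by what they carry, the members comprise 34 mitochondrial carriers, 29 carriers of amino acids and peptides, 24 of metals and heme, 21 of the nucleotide sugar family Slc35, 14 of chloride, bicarbonate, sulfate and phosphate, 13 of sugars, 12 orphans or genes that are not transporters, 8 of fatty acids, choline and acetyl-CoA, 8 of sodium, potassium, calcium and protons, 7 of monocarboxylates and other carboxylates, 5 of organic ions, 5 of vitamins, 4 of neurotransmitters, creatine and taurine and 4 of nucleosides. The summed level of several classes barely moved. Mitochondrial carriers summed to 1859 and 1940 CPM in E17 coronary, 1784 and 1843 CPM in E17 endocardial, 1803 to 1952 CPM in E13 coronary and 1796 to 1823 CPM in E13 endocardial libraries. The class around taurine and creatine summed to 707.9 and 995.8 CPM in E17 coronary libraries, 455.8 and 528.7 CPM in E17 endocardial, 214.3 to 288.9 CPM in E13 coronary and 286.5 to 322.4 CPM in E13 endocardial libraries. No E17 coronary library overlapped any other group there, and Slc6a6 made up most of the sum. Sugar carriers had their highest sums in E17 endocardial libraries, 487.6 and 540.7 CPM, against 319.4 and 353.2 CPM in E17 coronary, 340.2 to 389.8 CPM in E13 coronary and 370.5 to 389.2 CPM in E13 endocardial libraries. That peak came from Slc45a3: without it the sums were 379.8 and 397 CPM in E17 endocardial libraries, which overlapped both E13 coronary (335.4 to 386.9 CPM) and E13 endocardial ones (357.7 to 380.8 CPM). Nucleoside carriers summed highest in E17 coronary libraries, at 564.7 and 611.5 CPM, against 416.4 and 469.8 CPM in E17 endocardial, 313.2 to 364.6 CPM in E13 coronary and 363.2 to 397 CPM in E13 endocardial libraries. Without Slc28a2 the E17 coronary sums of 481.3 and 527.2 CPM were still above the 414 and 467.8 CPM of E17 endocardial libraries. These sums were not tested. Counts of called members by class below include those at 5 CPM in only some groups. In all 4 groups were 30 of 34 mitochondrial, 19 of 29 amino acid, 22 of 24 metal and 18 of 21 Slc35 members. So were 9 of 13 sugar, 12 of 14 chloride and 5 of 8 sodium class members. Of all genes tested, 26.5% and 26.1% were called higher and lower between populations at E17, and 30.1% and 29.9% at E13. By stage it was 24.6% and 25.6% in coronary and 16.2% and 15.6% in endocardial cells.

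**Figure D2:**
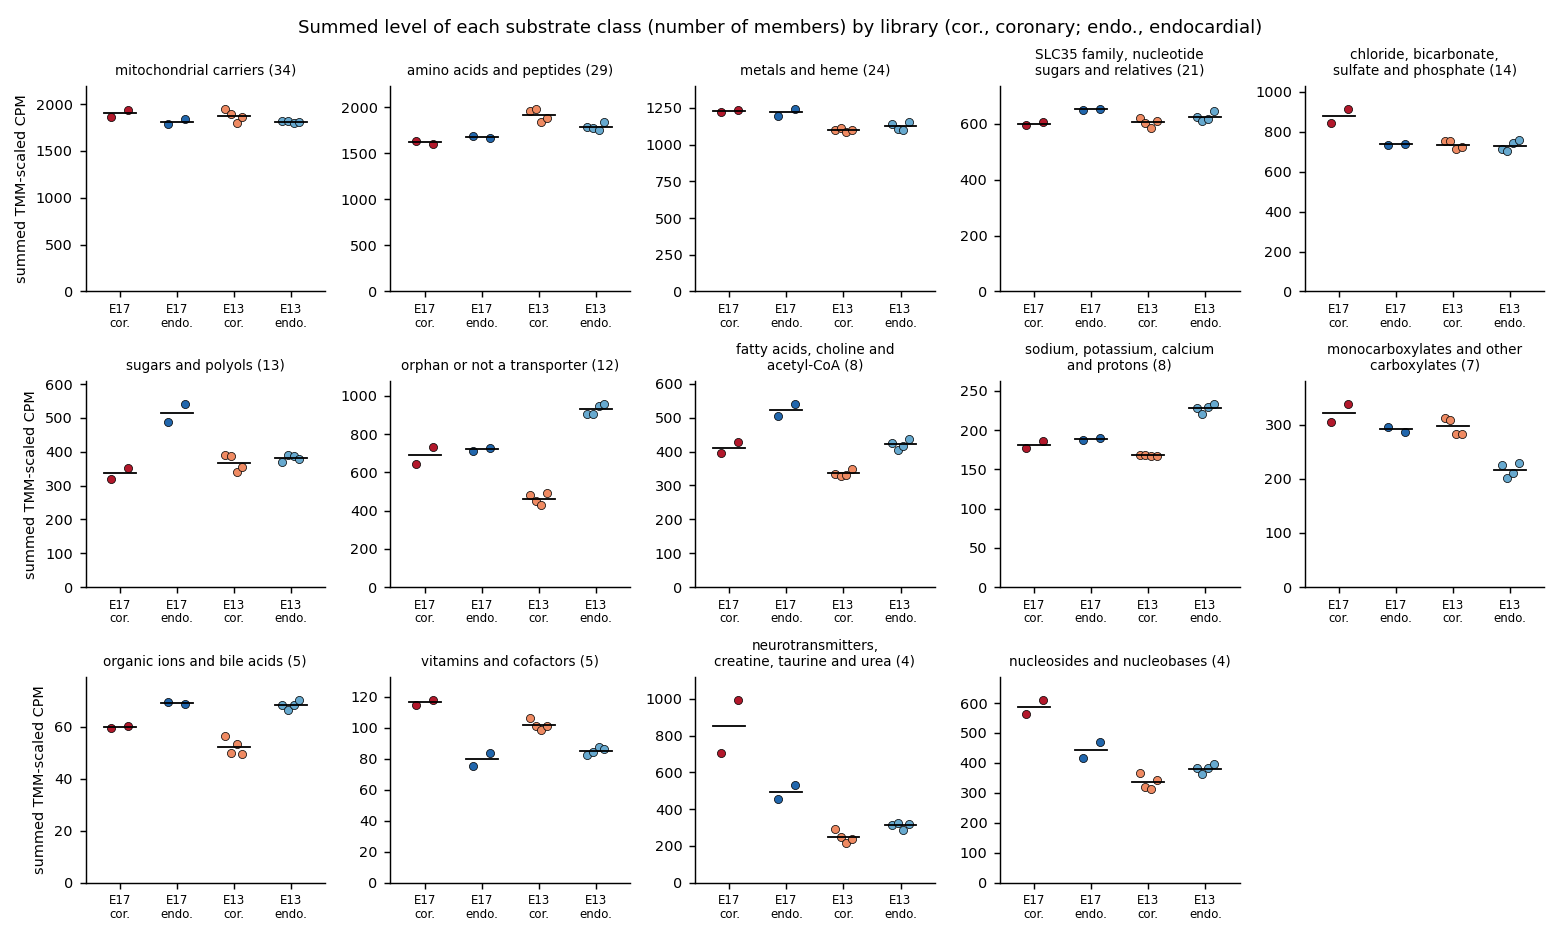
Summed TMM-scaled CPM of the members of each of 14 substrate classes, with 1 point per library, black lines at the group means, and groups running from E17 coronary and E17 endocardial to E13 coronary and E13 endocardial. The taurine and creatine class stands highest in both E17 coronary libraries (707.9 and 995.8 CPM), while the mitochondrial sums of all 12 libraries lie between 1784 and 1952 CPM.

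Among the monocarboxylate carriers at 5 CPM in all 4 groups, Slc16a3 separated the populations most. Slc16a3 encodes the lactate exporter MCT4 of glycolytic cells (chromosome 11, 120948480-120960868, plus strand, GRCm38). Slc16a3 stood at 39.8 and 57.5 CPM in E17 coronary and 8.89 and 13.2 CPM in E17 endocardial libraries. At E13 it stood at 131, 138, 109 and 109.8 CPM in coronary and 7.82, 11.5, 8.4 and 7.02 CPM in endocardial libraries. Every coronary library lay above every endocardial library, and every E13 coronary library above every E17 coronary one. The difference was 2.15 ± 0.24, adjusted p = 1.24e-05 at E17 and 3.81 ± 0.17, adjusted p = 6.59e-09 at E13 in edgeR. Coronary cells fell between the stages by 1.32 ± 0.19 (adjusted p = 0.000129), endocardial cells did not pass the test (0.33 ± 0.23, adjusted p = 0.308), and the population difference was smaller at E17 (−1.65 ± 0.30, adjusted p = 0.00117). Slc16a1, the lactate carrier MCT1 that works in either direction, had 16.9 and 14.2 CPM in E17 coronary, 9.77 and 9.79 CPM in E17 endocardial, 26.7, 32.5, 28.8 and 30.2 CPM in E13 coronary and 13.3, 14.4, 11.6 and 12.2 CPM in E13 endocardial libraries. It was higher in coronary cells at both stages (edgeR, 0.67 ± 0.13, adjusted p = 0.00109 at E17, 1.20 ± 0.09, adjusted p = 2.86e-07 at E13) and fell in coronary cells by 0.93 ± 0.11 (adjusted p = 2.75e-05). The chaperones of these carriers are Bsg (basigin) and Emb (embigin). Bsg had mean levels of 251.4, 360.6, 292.3 and 313.9 CPM in E17 coronary, E17 endocardial, E13 coronary and E13 endocardial cells, and Emb had 2.133, 9.16, 15.48 and 9.996 CPM. Bsg was lower in coronary cells at E17 (edgeR log2 difference −0.52 ± 0.06, adjusted p = 2.51e-05) and did not pass at E13 (−0.10 ± 0.05, adjusted p = 0.0669), where it passed without E17 coronary replicate 2 (adjusted p = 0.0466). Slc16a7, a high-affinity pyruvate and lactate carrier, reached 5 CPM only in E17 endocardial cells, at 5.29 and 6.22 CPM against 0.823 and 0.12 CPM in E17 coronary libraries.

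The promoters of Slc16a3 and of the glucose carrier Slc2a1 are shown because both genes are textbook hypoxia-responsive genes. The sequences are the 300 bases from 250 before to 50 after the transcription start, from RefSeq on GRCm38.p6, 5′ to 3′ on the gene's strand, and capitals mark the hypoxia element cores ACGTG or GCGTG searched on both strands. The Slc16a3 window is chr11:120948817-120949116, plus strand, with matches starting 27 and 14 bases before the start site and a GC content of 73.3%. The Slc2a1 window is chr4:119108495-119108794, plus strand, with matches 61 and 36 bases before the start site and a GC content of 65.3%.
Slc16a3: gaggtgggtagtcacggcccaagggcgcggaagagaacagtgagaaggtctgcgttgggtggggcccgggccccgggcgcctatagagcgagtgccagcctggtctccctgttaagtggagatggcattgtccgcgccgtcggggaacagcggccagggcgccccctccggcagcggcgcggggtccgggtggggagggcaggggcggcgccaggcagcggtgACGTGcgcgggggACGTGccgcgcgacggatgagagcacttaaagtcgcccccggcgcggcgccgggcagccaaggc
Slc2a1: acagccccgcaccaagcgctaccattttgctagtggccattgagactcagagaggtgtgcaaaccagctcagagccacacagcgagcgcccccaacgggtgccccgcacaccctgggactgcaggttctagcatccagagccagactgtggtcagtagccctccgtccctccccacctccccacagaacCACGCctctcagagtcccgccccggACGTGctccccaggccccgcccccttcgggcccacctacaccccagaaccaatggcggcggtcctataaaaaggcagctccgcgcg
ACGTG was found in 19.6% of 32851 RefSeq promoter windows of this length and in 28.4% of the 197 windows of the 145 members with one, and GCGTG in 32.4% and 48.2%. A match is a description of the letters only.

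Of the 13 sugar carriers, 3 were higher and 6 lower in coronary cells at E17, and 2 were higher and 7 lower at E13. The 3 became 0 without E17 coronary replicate 2 or E17 endocardial replicate 1. Slc2a1, the erythrocyte and barrier-type glucose carrier GLUT1 (chromosome 4, 119108711-119137983), had 108 and 139.6 CPM in E17 coronary, 68.5 and 87.6 CPM in E17 endocardial, 121, 120.5, 83.1 and 92.3 CPM in E13 coronary and 53.9, 64.4, 55.9 and 48.9 CPM in E13 endocardial libraries. All coronary libraries of a stage were above the endocardial libraries of that stage. The edgeR difference was 0.67 ± 0.20, adjusted p = 0.0132 at E17 and 0.90 ± 0.14, adjusted p = 0.000135 at E13, and the E17 call was lost without E17 endocardial replicate 1 (adjusted p = 0.121) or E17 coronary replicate 2 (adjusted p = 0.126). Slc2a3, the high-affinity glucose carrier GLUT3, reached 5 CPM in 3 groups: 6.79 and 7.52 CPM in E17 coronary, 3.89 and 4.94 CPM in E17 endocardial, 16, 19.9, 17.1 and 17.3 CPM in E13 coronary and 6.92, 9.08, 6.54 and 7.16 CPM in E13 endocardial libraries. Its highest values were the 4 E13 coronary libraries, which overlapped no other group. Slc2a10, an intracellular carrier of the glucose family whose loss causes arterial tortuosity in humans (chromosome 2, 165503787-165519917), ran the other way. For Slc2a10, levels at E17 were 5.49 and 6.77 CPM in coronary and 26.6 and 31.2 CPM in endocardial libraries. Levels at E13 were 14.6, 15.8, 14.4 and 16 CPM in coronary and 20.7, 19.2, 19.9 and 21.4 CPM in endocardial libraries. The groups did not overlap, with E17 endocardial highest and E17 coronary lowest. In edgeR the difference was −2.23 ± 0.13, adjusted p = 3.53e-08 at E17 and −0.42 ± 0.08, adjusted p = 0.000722 at E13, and it differed between the stages (−1.81 ± 0.15, adjusted p = 3.77e-06). Slc45a3, of a family related to sugar carriers (chromosome 1, 131962967-131982969), was the most uneven. Its level was 2.02 and 1.89 CPM in the E17 coronary libraries and 108 and 144 CPM in the E17 endocardial ones. At the earlier stage, coronary libraries had 2.92, 4.89, 4.78 and 4.85 CPM and endocardial libraries 12.8, 8.37, 7.98 and 11.8 CPM. E17 endocardial libraries were thus 12.2-fold above E13 endocardial and 64.2-fold above E17 coronary libraries in the fitted values, which chose it and were not tested. Its relative Slc45a4 was lower in coronary cells at both stages (edgeR, −0.94 ± 0.11, adjusted p = 2.11e-05 at E17, −0.52 ± 0.08, adjusted p = 0.000103 at E13). Slc37a1, a sugar phosphate carrier of the endoplasmic reticulum, had 5 counts in all in the E17 coronary libraries and 4.37 and 7.65 CPM in the E17 endocardial ones. Slc2a9, a urate carrier, reached 5 CPM only in E17 coronary libraries, at 6.93 and 7.13 CPM, against at most 4.42 CPM elsewhere. Slc50a1, the mammalian member of the sugar exporter family first described in plants, rose in endocardial cells by stage (edgeR, 1.06 ± 0.13, adjusted p = 0.000112), with 25.9 and 25 CPM at E17 against 10.4 to 13.9 CPM at E13.

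**Figure D3:**
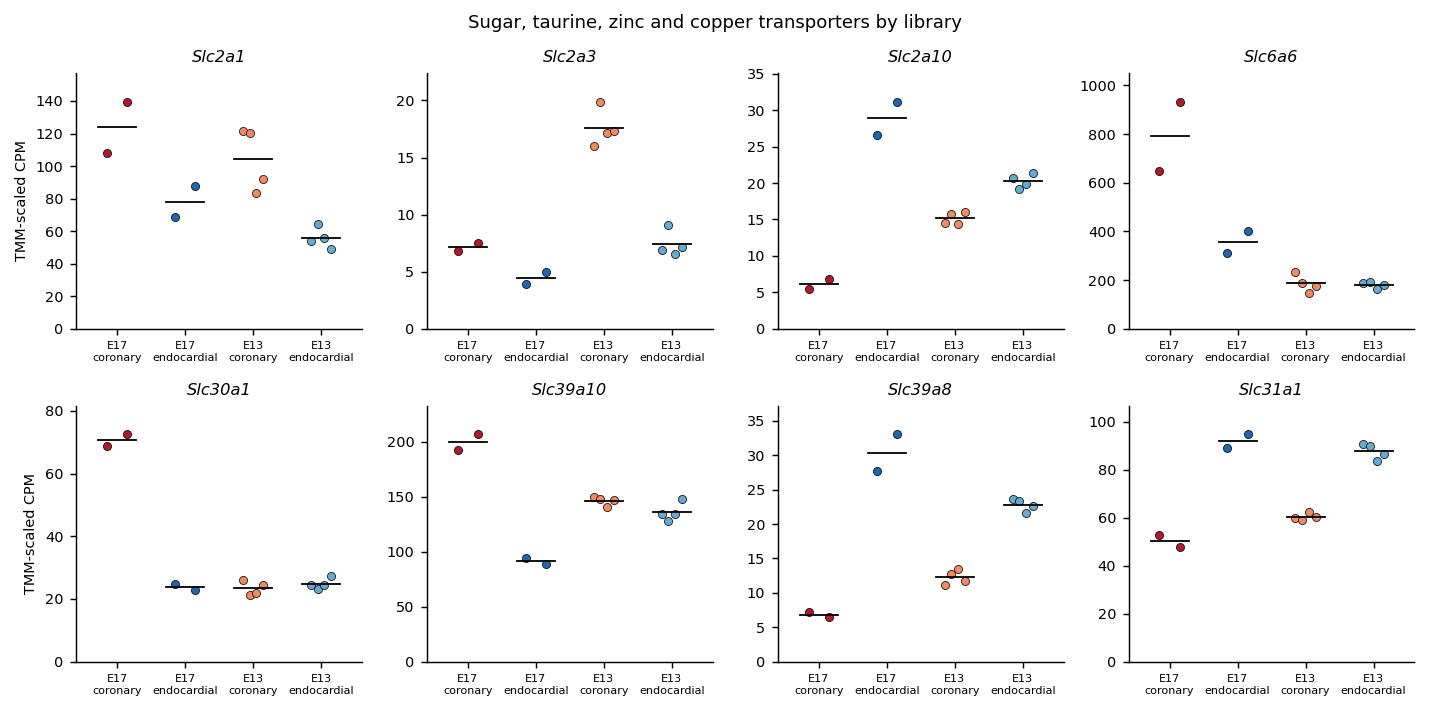
TMM-scaled CPM of Slc2a1, Slc2a3, Slc2a10, Slc6a6, Slc30a1, Slc39a10, Slc39a8 and Slc31a1 in each library, with black lines at the group means. Slc6a6 (647 and 933 CPM), Slc30a1 (68.8 and 72.5 CPM) and Slc39a10 (192 and 206 CPM) are highest in the 2 E17 coronary libraries, whereas Slc2a10 and Slc39a8 are lowest there.

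Of the 29 amino acid carriers, 11 were higher and 11 lower in coronary cells at E17, and 13 were higher and 8 lower at E13. In coronary cells 7 were higher and 16 lower at E17 than at E13. The light chain Slc7a5 (LAT1), which exchanges large neutral amino acids, was at 60.6 and 54 CPM in E17 coronary, 36.6 and 33.5 CPM in E17 endocardial, 77.5, 68, 62.6 and 67.6 CPM in E13 coronary and 41.5, 39, 39 and 40.7 CPM in E13 endocardial libraries. Its coronary libraries were above the endocardial ones at both stages without overlap (edgeR, 0.71 ± 0.10, adjusted p = 5.96e-05 at E17, 0.78 ± 0.07, adjusted p = 9.20e-07 at E13). Its heavy chain partner Slc3a2 (CD98) changed otherwise, with 90.3 and 93.6 CPM in E17 coronary, 106 and 105 CPM in E17 endocardial, 103, 92.6, 92.4 and 92.6 CPM in E13 coronary and 82, 78.7, 76.6 and 78.8 CPM in E13 endocardial libraries. The edgeR difference of Slc3a2 was −0.20 ± 0.06, adjusted p = 0.023 at E17 and 0.27 ± 0.05, adjusted p = 0.000276 at E13, and the E17 call was lost without any single E17 library (adjusted p 0.0558 to 0.141). Slc7a6, another light chain of Slc3a2, was higher in coronary cells at both stages (0.64 ± 0.11, adjusted p = 0.000324 at E17, 1.00 ± 0.07, adjusted p = 2.52e-07 at E13, edgeR). Slc43a1 and Slc43a2 carry the same amino acids by facilitated diffusion without a heavy chain. Slc43a1 was at 18.8 and 17.9 CPM in E17 coronary, 19 and 17.8 CPM in E17 endocardial, 55.6, 58.3, 50.9 and 57.6 CPM in E13 coronary and 27.9, 28.3, 29.6 and 29.6 CPM in E13 endocardial libraries. The 4 E13 coronary libraries stood above all others, and the E17 groups overlapped. In edgeR, Slc43a1 fell in coronary cells by 1.60 ± 0.07 (adjusted p = 1.69e-08) and in endocardial cells by 0.65 ± 0.07 (adjusted p = 3.89e-05). Slc43a2 fell by 1.47 ± 0.13 (adjusted p = 9.71e-06) in endocardial cells and by 0.91 ± 0.13 (adjusted p = 0.000127) in coronary cells.

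The glutamine and alanine carriers of the Slc38 family differed among themselves. Slc38a1, a sodium-coupled glutamine carrier, had 54 and 47.8 CPM in E17 coronary, 59 and 54.2 CPM in E17 endocardial, 137, 155, 138 and 145 CPM in E13 coronary and 114, 120.2, 122 and 120.5 CPM in E13 endocardial libraries. Every E13 library exceeded every E17 library, with an edgeR stage difference of −1.50 ± 0.07, adjusted p = 2.50e-08 in coronary and −1.07 ± 0.07, adjusted p = 1.07e-06 in endocardial cells. Slc38a2, its neighbour 44478 bases away on chromosome 15 and induced by amino acid starvation in cultured cells, had 248 and 234 CPM in E17 coronary, 385 and 350.3 CPM in E17 endocardial, 319.9, 379, 315 and 318 CPM in E13 coronary and 284, 298, 246 and 270.0 CPM in E13 endocardial libraries. It was lower in coronary cells at E17 and higher at E13 (−0.61 ± 0.10, adjusted p = 0.000361 and 0.28 ± 0.07, adjusted p = 0.00601), and the change between stages passed (−0.89 ± 0.13, adjusted p = 0.000241, edgeR). Slc38a4, an imprinted carrier of neutral and cationic amino acids, had 30.6 and 14.9 CPM in E17 coronary, 69.1 and 63 CPM in E17 endocardial, 95.4, 152, 182 and 134 CPM in E13 coronary and 138, 148, 150.0 and 151 CPM in E13 endocardial libraries. In edgeR it fell in coronary cells by 2.64 ± 0.28 (adjusted p = 9.75e-06) and in endocardial cells by 1.15 ± 0.25 (adjusted p = 0.00408). Without E17 coronary replicate 1 the coronary difference was −3.25. Among E13 coronary replicates its lowest and highest values fell in replicates 1 and 3, where the fibroblast marker sum was also lowest and highest (2747 and 7169 CPM), and in E17 coronary the higher value was in replicate 1, where that sum was 4874 against 2220 CPM; the part of fibroblast RNA in its level was not tested. Slc4a4, Slc7a2 and Slc27a1, described below, were likewise lowest in E13 coronary replicate 1 and highest in replicate 3. Of the 188 members, 15 followed the order of the fibroblast sum over all 4 E13 coronary libraries and 15 the reverse order.

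Slc7a1, the main importer of arginine and lysine, was lower in coronary cells. Libraries of E17 coronary cells held 116 and 117 CPM and of E17 endocardial cells 221 and 219.6 CPM. Those of E13 coronary cells held 175, 163, 157 and 159.8 CPM and of E13 endocardial cells 253, 234, 241 and 251 CPM. The coronary and endocardial libraries of a stage did not overlap (edgeR, −0.92 ± 0.06, adjusted p = 1.73e-07 at E17, −0.58 ± 0.04, adjusted p = 3.16e-07 at E13). Of its relatives, Slc7a14, a lysosomal family member, had 0.455 and 0.434 CPM in E17 coronary, 9.89 and 9.1 CPM in E17 endocardial, 0.772, 0.876, 1.69 and 1.73 CPM in E13 coronary and 17.6, 21.3, 18.7 and 22.6 CPM in E13 endocardial libraries, and Slc7a4 had 0.274 and 0.359 CPM in E17 coronary, 7.4 and 8.56 CPM in E17 endocardial, 2.31 to 3.21 CPM in E13 coronary and 6.31 to 7.58 CPM in E13 endocardial libraries. Both stood at 5 CPM in endocardial cells alone. The arginine carrier Slc7a2 had 2.68 and 1.14 CPM in E17 coronary, 12.9 and 7.91 CPM in E17 endocardial, 3.75, 6.2, 7.6 and 5.87 CPM in E13 coronary and 3.8 to 5.63 CPM in E13 endocardial libraries. The glutamate carrier Slc1a2 reached 5 CPM only in E13 coronary cells: 5.21 and 4.37 CPM in E17 coronary, 0.0546 and 0.205 CPM in E17 endocardial, 12.1, 17, 8.93 and 9.83 CPM in E13 coronary and 1.03, 0.624, 0.205 and 0.178 CPM in E13 endocardial libraries. Its coronary libraries were above all endocardial ones. Slc1a3, the second glial-type glutamate carrier, was also highest there, at 13.6 to 23.9 CPM in E13 coronary libraries against 3.7 and 2.14 CPM in E17 coronary, 4.3 and 5.23 CPM in E17 endocardial and 5.18 to 6.29 CPM in E13 endocardial libraries. Slc1a5, the glutamine exchanger ASCT2, did not pass between populations at E17 (0.32 ± 0.13, adjusted p = 0.0607) and was higher in coronary cells at E13 (edgeR, 0.82 ± 0.09, adjusted p = 1.12e-05). The E17 difference passed with DESeq2's size factors (adjusted p = 0.0419). Slc1a4, a serine and alanine exchanger, was lower in coronary cells at E17 (−0.87 ± 0.13, adjusted p = 0.000149) and higher at E13 (0.53 ± 0.09, adjusted p = 0.000338, edgeR), with 16 and 14.1 CPM in E17 coronary, 26.8 and 28.1 CPM in E17 endocardial, 19, 22.6, 26.2 and 21.9 CPM in E13 coronary and 16.6, 15.1, 14.6 and 15.9 CPM in E13 endocardial libraries. The 3 most abundant carriers of the class by CPM were Slc38a2, described above and lower in coronary cells at E17, and its less studied relatives Slc38a6 and Slc38a10, which were higher there (0.61 ± 0.10, adjusted p = 0.000356 for Slc38a6, 0.31 ± 0.07, adjusted p = 0.00269 for Slc38a10, edgeR).

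**Figure D4:**
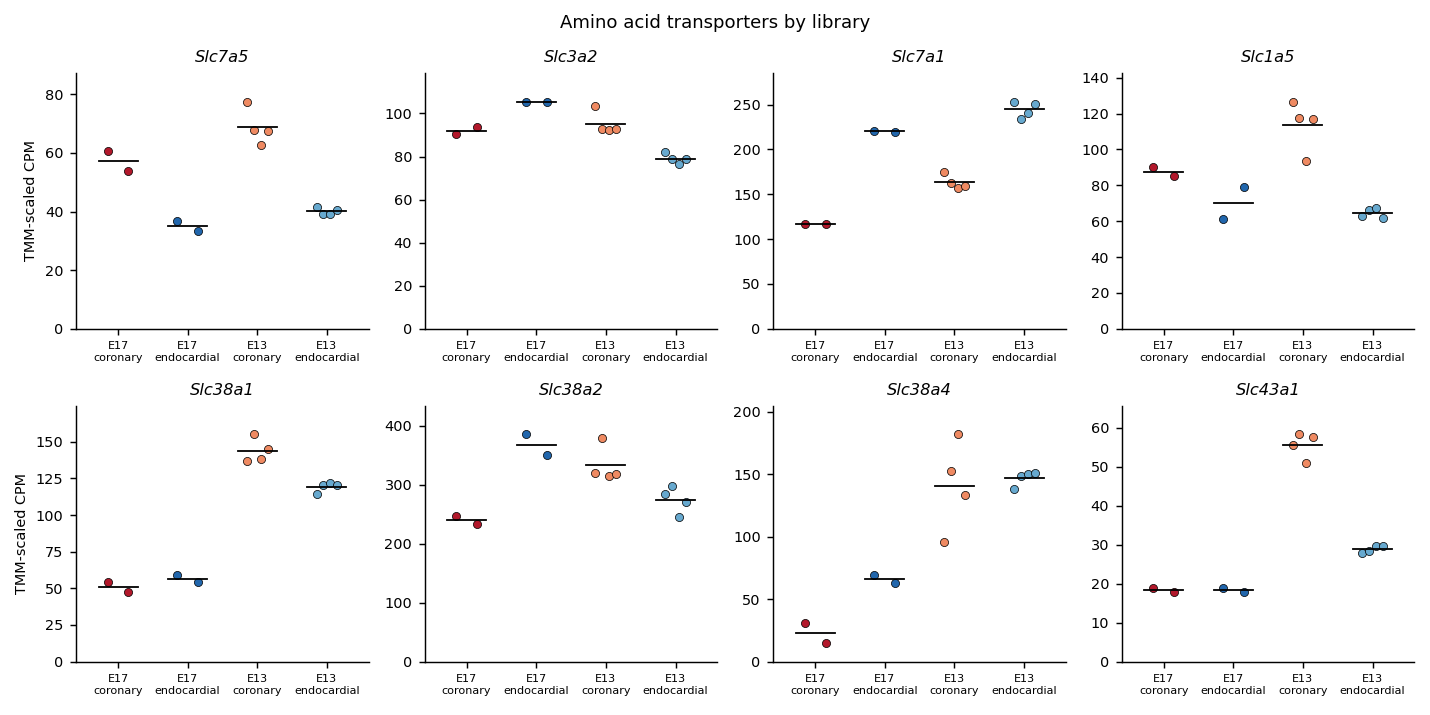
TMM-scaled CPM of Slc7a5, Slc3a2, Slc7a1, Slc1a5, Slc38a1, Slc38a2, Slc38a4 and Slc43a1 in each library, with black lines at the group means. Slc7a5 is higher and Slc7a1 lower in coronary than in endocardial libraries at each stage, and Slc38a1 and Slc43a1 have their highest values in the 4 E13 coronary libraries (137 to 155 and 50.9 to 58.3 CPM).

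Of 24 metal and heme carriers, 6 were higher and 8 lower in coronary cells at E17 and 7 were higher and 10 lower at E13. In coronary cells 12 were higher and 5 lower at E17 than at E13, and the 5 became 3 without E17 coronary replicate 2. In endocardial cells 11 were higher and 1 lower at E17, and the 11 became 4 without E17 endocardial replicate 2. Slc30a1, the zinc exporter of the plasma membrane that cells induce when zinc is plentiful (chromosome 1, 191906767-191913247), was the clearest. The E17 coronary libraries had 68.8 and 72.5 CPM of Slc30a1 and the E17 endocardial ones 24.8 and 23 CPM. The E13 coronary libraries had 26.1, 21.2, 21.8 and 24.3 CPM and the E13 endocardial ones 24.5, 23.1, 24.6 and 27.3 CPM. The 2 E17 coronary libraries were the highest, and the other 3 groups overlapped. The edgeR difference was 1.57 ± 0.11, adjusted p = 1.65e-07 at E17 and −0.09 ± 0.08, adjusted p = 0.315 at E13, coronary cells rose by stage (1.60 ± 0.09, adjusted p = 5.38e-08), and the change of the population difference was 1.66 ± 0.13, adjusted p = 2.76e-06. The zinc importer Slc39a10 behaved alike in coronary cells, with 192 and 206 CPM in E17 coronary, 94.3 and 88.6 CPM in E17 endocardial, 149.9, 148, 141 and 147 CPM in E13 coronary and 134, 128, 134 and 148 CPM in E13 endocardial libraries. In edgeR it was higher in coronary than in endocardial cells at E17 (1.12 ± 0.07, adjusted p = 9.76e-08), did not pass at E13 (0.11 ± 0.05, adjusted p = 0.0845), rose in coronary cells (0.45 ± 0.06, adjusted p = 6.12e-05) and fell in endocardial cells by 0.57 ± 0.06 (adjusted p = 4.12e-05). The E13 difference passed with DESeq2's size factors (adjusted p = 0.0379) and without E13 endocardial replicate 4 (adjusted p = 0.0195). Slc39a8, an importer of zinc, manganese and iron, went the other way. Slc39a8 stood at 7.14 and 6.41 CPM in E17 coronary and 27.8 and 33 CPM in E17 endocardial libraries. At E13 it stood at 11.1, 12.8, 13.4 and 11.7 CPM in coronary and 23.6, 23.4, 21.6 and 22.6 CPM in endocardial libraries. The 4 groups did not overlap, from E17 coronary at the bottom to E17 endocardial at the top (edgeR, −2.17 ± 0.12, adjusted p = 4.33e-08 at E17, −0.90 ± 0.08, adjusted p = 1.70e-06 at E13, change −1.27 ± 0.15, adjusted p = 5.00e-05). Slc39a6, a zinc importer paired with Slc39a10, did not pass between populations at E17 (0.27 ± 0.14, adjusted p = 0.12) and was higher in coronary cells at E13 (0.95 ± 0.10, adjusted p = 3.57e-06, edgeR). Its E17 difference passed without E13 coronary replicate 1 (adjusted p = 0.0277). Slc39a13, a zinc carrier of intracellular membranes, was lower in coronary cells at E17 (−0.86 ± 0.12, adjusted p = 5.75e-05, edgeR), with 20.5 and 20.1 CPM against 36.9 and 36.7 CPM in E17 endocardial libraries.

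Mt1, a metallothionein gene that also responds to zinc, averaged 3.82 CPM in E17 coronary, 1.189 in E17 endocardial, 3.035 in E13 coronary and 0.8206 in E13 endocardial cells, and it was higher in coronary cells at both stages (edgeR log2 difference 1.68 ± 0.37, adjusted p = 0.00237 at E17, and 1.86 ± 0.27, adjusted p = 7.26e-05 at E13). Copper carriers split. Slc31a1, the high-affinity copper importer, was lower in coronary cells at both stages (−0.87 ± 0.07, adjusted p = 4.87e-07 at E17, −0.54 ± 0.05, adjusted p = 1.07e-06 at E13, edgeR), with 52.7 and 47.7 CPM in E17 coronary, 89 and 94.8 CPM in E17 endocardial, 60.0, 59, 62.6 and 60.2 CPM in E13 coronary and 90.7, 90.0, 83.5 and 86.7 CPM in E13 endocardial libraries. Its neighbour Slc31a2, 62315 bases away on chromosome 4, rose in coronary cells by stage (0.99 ± 0.09, adjusted p = 1.78e-06, edgeR), at 44.9 and 46 CPM in E17 coronary against 19.7 to 24.6 CPM in E13 coronary libraries. Of the 3 most abundant members of the class, Slc39a10 was higher in coronary cells at E17, as given above, and the zinc carriers Slc39a7 and Slc39a1 were lower (−0.31 ± 0.06, adjusted p = 0.000832 for Slc39a7, −0.33 ± 0.07, adjusted p = 0.00165 for Slc39a1, edgeR), and Slc39a7 shares 80.7% of its exon bases with another annotated gene. The iron exporter Slc40a1 (ferroportin) did not pass in any of the 5 comparisons and lay between 5.27 and 9.63 CPM in all libraries. Heph, the copper oxidase that works with it, was lower in coronary cells at both stages (−1.49 ± 0.09, adjusted p = 9.04e-08 at E17, and −1.85 ± 0.07, adjusted p = 1.67e-09 at E13, edgeR). The magnesium carrier Slc41a2 reached 5 CPM in coronary cells alone, at 5.14 and 8.47 CPM in E17 coronary and 5.14 to 6.58 CPM in E13 coronary, against 2.67 and 3.11 CPM in E17 endocardial and 0.416 to 0.901 CPM in E13 endocardial libraries.

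The promoter of Slc30a1 is shown because metal elements are known to mediate its response to zinc. Capitals mark the metal element core TGCACNC or TGCGCNC on either strand, at 43 bases before and 31 bases after the start site of the window chr1:191906531-191906830, plus strand, RefSeq on GRCm38.p6.
Slc30a1: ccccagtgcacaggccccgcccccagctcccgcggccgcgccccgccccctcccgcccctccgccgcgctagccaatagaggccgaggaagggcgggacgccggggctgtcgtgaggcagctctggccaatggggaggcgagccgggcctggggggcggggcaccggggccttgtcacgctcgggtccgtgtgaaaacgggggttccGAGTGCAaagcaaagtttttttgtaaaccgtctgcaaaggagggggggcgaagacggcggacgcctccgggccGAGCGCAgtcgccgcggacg
The core was found in 25.7% of all promoter windows and in 35.5% of the members' windows.

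Slc28a2, a sodium-coupled concentrative carrier of purine nucleosides, entered the set through E17 coronary cells alone (chromosome 2, 122426477-122461137). For Slc28a2, levels at E17 were 83.5 and 84.3 CPM in coronary and 2.4 and 2.01 CPM in endocardial libraries. Levels at E13 were 2.22, 0.39, 0.353 and 0.747 CPM in coronary and 1.8, 1.58, 1.05 and 1.49 CPM in endocardial libraries. The E17 coronary libraries hold 2624 counts in total, against 75 in E17 endocardial, 71 in E13 coronary and 127 in E13 endocardial libraries. The fitted fold was 37.8 between E17 coronary and E17 endocardial cells and 92.8 between E17 and E13 coronary cells, given without a test. The equilibrative nucleoside carrier Slc29a1 ran weakly the other way, with 204 and 228 CPM in E17 coronary, 249 and 269.9 CPM in E17 endocardial, 195, 173, 164 and 173 CPM in E13 coronary and 213, 208, 226 and 223 CPM in E13 endocardial libraries. Its edgeR difference was −0.26 ± 0.09, adjusted p = 0.0205 at E17 and −0.30 ± 0.06, adjusted p = 0.000849 at E13, and the E17 call was lost without E17 endocardial replicate 2 (adjusted p = 0.147) or E17 coronary replicate 1 (adjusted p = 0.191). Slc43a3, a carrier of purine nucleobases, was higher in coronary than in endocardial cells at E17 (0.75 ± 0.10, adjusted p = 7.00e-05), did not pass at E13 (0.01 ± 0.07, adjusted p = 0.929), and its change between stages passed (0.74 ± 0.13, adjusted p = 0.000867, edgeR). Its level was 262 and 282 CPM in the E17 coronary libraries and 145 and 178 CPM in the E17 endocardial ones. At the earlier stage, coronary libraries had 153, 134, 133 and 152 CPM and endocardial libraries 147, 135, 135 and 152 CPM. The lysosomal carrier Slc29a3 did not pass between populations at E17 (−0.28 ± 0.11, adjusted p = 0.052) and was lower in coronary cells at E13 (−0.41 ± 0.08, adjusted p = 0.000631, edgeR). At E17 it passed with the batch block (adjusted p = 0.045).

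The Slc28a2 promoter window, chr2:122426185-122426484, plus strand, RefSeq on GRCm38.p6, is shown as a contrast in base composition to the 3 above. It holds 1 CG pair, marked in capitals 26 bases after the start site, and a GC content of 46.7%, while the Slc16a3 and Slc30a1 windows hold 36 CG pairs each and the Slc2a1 window 18.
Slc28a2: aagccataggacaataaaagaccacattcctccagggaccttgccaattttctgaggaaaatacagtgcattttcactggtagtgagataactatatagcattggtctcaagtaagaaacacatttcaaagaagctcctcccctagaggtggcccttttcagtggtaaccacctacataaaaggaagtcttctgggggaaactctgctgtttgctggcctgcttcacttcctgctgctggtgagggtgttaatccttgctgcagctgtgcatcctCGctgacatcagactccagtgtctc

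**Figure D5:**
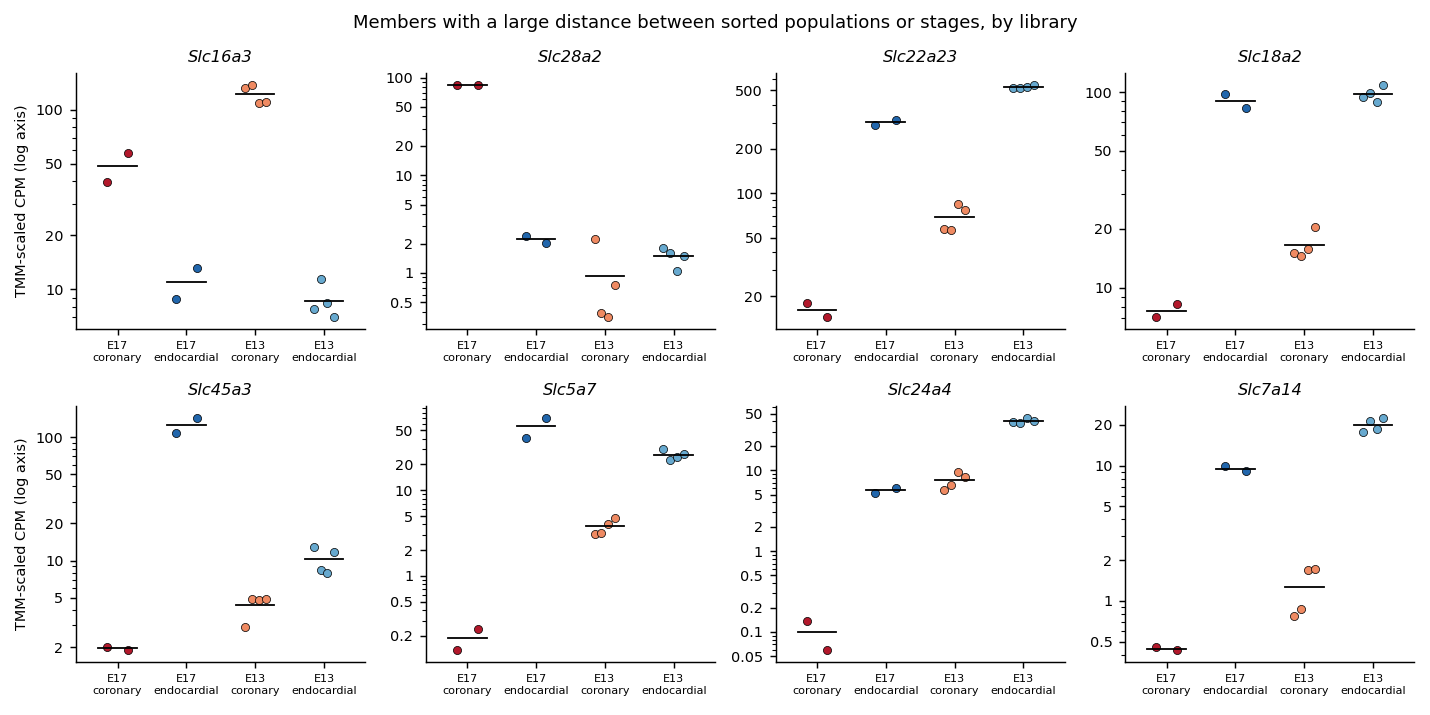
TMM-scaled CPM of Slc16a3, Slc28a2, Slc22a23, Slc18a2, Slc45a3, Slc5a7, Slc24a4 and Slc7a14 in each library on a log axis, with black lines at the group means. Slc28a2 is above 80 CPM in both E17 coronary libraries and at most 2.4 CPM in the other 10, and Slc5a7 and Slc24a4 have 6 and 3 counts in all in the E17 coronary libraries.

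Slc6a6, the sodium and chloride coupled taurine carrier (chromosome 6, 91684053-91759066), had the highest CPM of all members in E17 coronary cells. Libraries of E17 coronary cells held 647 and 933 CPM and of E17 endocardial cells 312 and 401 CPM. Those of E13 coronary cells held 233, 189.5, 148 and 175 CPM and of E13 endocardial cells 186, 191, 162 and 182 CPM. E17 coronary libraries were highest, E17 endocardial next, and the E13 groups overlapped. In edgeR Slc6a6 rose by stage in coronary cells (2.08 ± 0.17, adjusted p = 1.03e-06) and in endocardial cells (0.98 ± 0.17, adjusted p = 0.000901). It was higher in coronary cells at E17 (1.15 ± 0.20, adjusted p = 0.000437), did not pass at E13 (0.05 ± 0.14, adjusted p = 0.777), and the change passed (1.10 ± 0.25, adjusted p = 0.00474). Per exon length, its level in TPM (counts per exon length, scaled to 1000000 in each library) was 308.8 in E17 coronary, 138.2 in E17 endocardial, 79.34 in E13 coronary and 72.55 in E13 endocardial cells. Slc18a2, which loads monoamines into vesicles (VMAT2; chromosome 19, 59260896-59296012), was highest in endocardial cells. The E17 coronary libraries had 7.06 and 8.21 CPM of Slc18a2 and the E17 endocardial ones 98.1 and 82.6 CPM. The E13 coronary libraries had 15.1, 14.6, 15.7 and 20.4 CPM and the E13 endocardial ones 93.8, 98.6, 89.4 and 109 CPM. No coronary library reached an endocardial one (edgeR, −3.56 ± 0.17, adjusted p = 9.26e-09 at E17, −2.57 ± 0.11, adjusted p = 4.50e-09 at E13), and coronary cells fell by 1.10 ± 0.16 (adjusted p = 0.00011) while endocardial cells did not pass (−0.11 ± 0.12, adjusted p = 0.529). The creatine carrier Slc6a8 was higher in coronary cells at E13 (0.57 ± 0.07, adjusted p = 1.75e-05, edgeR), with 30.1 to 37.1 CPM against 21.2 to 23.8 CPM in E13 endocardial libraries. Slc6a8 was also called higher there at E17 (0.29, adjusted p = 0.0216, edgeR). That call was lost without E17 coronary replicate 2 (0.26), E17 endocardial replicate 1 (0.27) or E17 endocardial replicate 2 (0.32). The vesicular polyamine carrier Slc18b1 passed in none of the comparisons and lay between 9.22 and 13.7 CPM.

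Choline carriers were uneven in type. Slc5a7, the high-affinity choline carrier known from cholinergic neurons (chromosome 17, 54273590-54299034), reached 5 CPM in endocardial cells alone. Slc5a7 stood at 0.137 and 0.24 CPM in E17 coronary and 40.6 and 70.3 CPM in E17 endocardial libraries. At E13 it stood at 3.08, 3.16, 4.08 and 4.8 CPM in coronary and 30.5, 22.6, 24.7 and 26.6 CPM in endocardial libraries. Together the E17 coronary libraries hold 6 counts, against 1829 in the E17 endocardial ones. Slc44a1, the widespread choline carrier, was lower in coronary cells at both stages (edgeR, −0.55 ± 0.08, adjusted p = 7.83e-05 at E17, −0.80 ± 0.06, adjusted p = 1.65e-07 at E13) and rose with stage in coronary cells (0.78 ± 0.07, adjusted p = 1.65e-06) and in endocardial cells (0.53 ± 0.07, adjusted p = 9.19e-05). For Slc44a1, levels at E17 were 106 and 120.1 CPM in coronary and 162 and 169 CPM in endocardial libraries. Levels at E13 were 64.2, 62.1, 67.5 and 69 CPM in coronary and 119, 109, 110.2 and 119.5 CPM in endocardial libraries. Slc44a5 of the same family was at 5 CPM in coronary cells alone, with 6.79 and 6.05 CPM in E17 coronary and 4.98 to 5.87 CPM in E13 coronary libraries, against 0.327 and 0.259 CPM in E17 endocardial and 0.048 to 0.338 CPM in E13 endocardial libraries. The fatty acid transport protein Slc27a3 was lower in coronary cells at E17 (−0.98 ± 0.20, adjusted p = 0.00123) and higher at E13 (0.60 ± 0.13, adjusted p = 0.00163), and it fell in coronary cells by 1.74 ± 0.18 (adjusted p = 7.67e-06) (edgeR). Slc27a1, a fatty acid transport protein of muscle and fat, had 2.63 and 2.04 CPM in E17 coronary, 8.19 and 5.7 CPM in E17 endocardial, 8.94, 12.8, 14.3 and 10.9 CPM in E13 coronary and 6.31 to 7.26 CPM in E13 endocardial libraries.

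Among carriers of sodium, potassium, calcium and protons, 2 were higher and 4 lower in coronary cells at E17, and 2 were higher and 6 lower at E13. The 2 higher at E17 became 1 without E17 coronary replicate 1. Slc24a4, a potassium-dependent sodium and calcium exchanger (chromosome 12, 102128733-102267091), was highest in E13 endocardial cells. Its level was 0.138 and 0.0599 CPM in the E17 coronary libraries and 5.18 and 6.09 CPM in the E17 endocardial ones. At the earlier stage, coronary libraries had 5.63, 6.63, 9.38 and 8.21 CPM and endocardial libraries 39.4, 38.5, 44.6 and 41 CPM. E17 coronary libraries were lowest and E13 endocardial ones highest. Libraries of the other 2 groups overlapped, and the E17 coronary libraries hold 3 counts in total. Slc8a1, the cardiac sodium and calcium exchanger, was higher in coronary libraries, at 11.9 and 8.21 CPM in E17 coronary against 4.75 and 5.25 CPM in E17 endocardial, and 8.79 to 14.5 CPM in E13 coronary against 3.75 to 4.85 CPM in E13 endocardial libraries. Slc8a3 of the same family reached 5 CPM only in E13 coronary libraries, at 4.69 to 6.33 CPM, against 0.891 and 0.18 CPM in E17 coronary, 4.42 and 2.2 CPM in E17 endocardial and 1.24 to 2.63 CPM in E13 endocardial libraries. The sodium and proton exchanger Slc9a5 turned between stages, higher in coronary cells at E17 (1.05 ± 0.15, adjusted p = 7.64e-05) and lower at E13 (−0.36 ± 0.10, adjusted p = 0.00833), with a change of 1.41 ± 0.18, adjusted p = 9.72e-05 in edgeR. Libraries of E17 coronary cells held 25.6 and 28 CPM and of E17 endocardial cells 10.5 and 15.6 CPM. Those of E13 coronary cells held 18.4, 17.8, 16.3 and 16.4 CPM and of E13 endocardial cells 20.8, 21.8, 22.8 and 23.3 CPM.

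Of 14 carriers of chloride, bicarbonate, sulfate and phosphate, 2 were higher and 7 lower in coronary cells at E17, and 5 were higher and 4 lower at E13. The 7 became 1 without E17 coronary replicate 2, 3 without E17 endocardial replicate 2, and 4 without either other E17 library. Slc12a2, the sodium, potassium and chloride importer that regulates cell volume, was higher in coronary cells at both stages. The E17 coronary libraries had 198 and 208 CPM of Slc12a2 and the E17 endocardial ones 76.5 and 70.1 CPM. The E13 coronary libraries had 139.9, 119.7, 114 and 118 CPM and the E13 endocardial ones 57.2, 49.5, 50.9 and 59.4 CPM. Coronary and endocardial libraries did not overlap (edgeR, 1.47 ± 0.11, adjusted p = 3.22e-07 at E17, 1.18 ± 0.08, adjusted p = 9.15e-08 at E13), and coronary cells rose by stage (0.73 ± 0.09, adjusted p = 2.95e-05). The potassium and chloride exporter Slc12a7 was lower in coronary cells at both stages (−1.21 ± 0.14, adjusted p = 1.18e-05 at E17, −0.40 ± 0.09, adjusted p = 0.00245 at E13, edgeR). Slc20a1, a sodium-coupled phosphate importer, was higher in coronary cells at both stages (0.91 ± 0.11, adjusted p = 1.58e-05 at E17, 0.98 ± 0.07, adjusted p = 3.66e-07 at E13, edgeR), with 138 and 146 CPM in E17 coronary, 71.7 and 79.4 CPM in E17 endocardial, 157, 157, 127 and 136 CPM in E13 coronary and 69.4, 79.5, 71.6 and 73.2 CPM in E13 endocardial libraries. Slc26a10 (chromosome 10, 127171393-127180645, minus strand), of the anion exchanger family, showed the greatest change of the population difference among members at 5 CPM in all groups. Slc26a10 stood at 101 and 153 CPM in E17 coronary and 110.0 and 102 CPM in E17 endocardial libraries. At E13 it stood at 25.1, 26.8, 32.5 and 32.8 CPM in coronary and 140.1, 143, 162 and 163 CPM in endocardial libraries. The E13 coronary libraries were lowest, the E13 endocardial ones highest apart from overlap with E17 coronary replicate 2, and the E17 groups overlapped. Its edgeR difference did not pass at E17 (0.26 ± 0.17, adjusted p = 0.226), was −2.37 ± 0.13, adjusted p = 2.26e-08 at E13, and changed by 2.63 ± 0.21, adjusted p = 3.57e-06. The E17 difference passed without E17 coronary replicate 1 (adjusted p = 0.0125). The gene shares 17.8% of its exon bases with the antisense gene B4galnt1, and the libraries do not mark strand, so reads of the shared bases cannot be assigned. B4galnt1 had 7.27 and 9.1 CPM in E17 coronary, 10.5 and 10.2 CPM in E17 endocardial, 3.59 to 4.08 CPM in E13 coronary and 16 to 18.4 CPM in E13 endocardial libraries. Slc4a4, a sodium and bicarbonate cotransporter, reached 5 CPM only in E13 coronary libraries, at 5.36, 9.35, 10.9 and 8.28 CPM, against 2.06 and 0.719 CPM in E17 coronary and at most 2.56 CPM in endocardial libraries.

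Of 34 mitochondrial carriers, 7 were higher and 9 lower in coronary cells at E17, and 8 were higher and 11 lower at E13. The class held the highest levels per exon length of all members. Slc25a5, an ADP and ATP exchanger, was at 645.4, 394.5, 675.1 and 452.2 TPM in E17 coronary, E17 endocardial, E13 coronary and E13 endocardial cells, and its relative Slc25a4 at 394.3, 374.5, 438.3 and 355 TPM. Both genes and the phosphate carrier Slc25a3 have near-identical processed copies, so their counts are less certain. Slc25a5 was higher in coronary cells in edgeR (0.69 ± 0.08, adjusted p = 2.30e-05 at E17, 0.50 ± 0.06, adjusted p = 1.55e-05 at E13), and Slc25a4 did not pass at E17 (0.06 ± 0.06, adjusted p = 0.405). Slc25a30, a relative of the uncoupling proteins, was higher in coronary cells (1.52 ± 0.12, adjusted p = 5.46e-07 at E17, 0.91 ± 0.08, adjusted p = 1.75e-06 at E13, edgeR), with 36.7 and 36.9 CPM in E17 coronary, 11.9 and 13.7 CPM in E17 endocardial, 23, 21.8, 18.8 and 21.1 CPM in E13 coronary and 11.7, 10.6, 10.4 and 12.4 CPM in E13 endocardial libraries. The calcium-regulated ATP and phosphate carrier Slc25a25 was likewise higher (1.13 ± 0.16, adjusted p = 6.25e-05 at E17, 0.73 ± 0.11, adjusted p = 0.000102 at E13, edgeR), whereas its relative Slc25a23 was at 5.37 and 3.9 CPM in E17 coronary, 48.1 and 40.1 CPM in E17 endocardial, 14.1 to 17.8 CPM in E13 coronary and 31.4 to 39 CPM in E13 endocardial libraries. Slc25a10, the dicarboxylate carrier, was higher in coronary cells by 0.95 ± 0.13, adjusted p = 7.50e-05 at E17 and 1.07 ± 0.09, adjusted p = 1.04e-06 at E13 (edgeR). Slc25a36, a pyrimidine nucleotide carrier, and Slc25a37, the mitochondrial iron importer mitoferrin, were lower in coronary cells at both stages. For the first of them, Slc25a36, levels were 60.8 and 58.2 CPM in E17 coronary, 151 and 139 CPM in E17 endocardial, 71.2, 73.5, 78.8 and 75.5 CPM in E13 coronary and 144, 153, 152 and 149 CPM in E13 endocardial libraries. Coronary and endocardial libraries did not overlap (edgeR, −1.29 ± 0.07, adjusted p = 1.59e-08 at E17, adjusted p = 6.21e-09 at E13). For Slc25a37 the edgeR difference passed at E17 (adjusted p = 2.26e-06) and was −0.87 ± 0.06, adjusted p = 2.59e-07 at E13, with 32.7 and 28.5 CPM in E17 coronary against 61.8 and 60.4 CPM in E17 endocardial libraries. The carnitine and acylcarnitine carrier Slc25a20 was lower in coronary cells at both stages (−0.47 ± 0.11, adjusted p = 0.00284 at E17, −0.39 ± 0.07, adjusted p = 0.000466 at E13) and fell with stage by 0.71 ± 0.09 (adjusted p = 5.87e-05) in coronary and 0.63 ± 0.09 (adjusted p = 0.00027) in endocardial cells (edgeR).

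The Slc35 family includes carriers that supply the Golgi apparatus and endoplasmic reticulum with nucleotide sugars, and their relatives. Of its 21 members, 4 were higher and 9 lower in coronary cells at E17, and 5 were higher and 9 lower at E13. Of the most abundant, Slc35a4 passed between populations at neither stage (0.14 ± 0.09, adjusted p = 0.205 at E17, 0.06 ± 0.06, adjusted p = 0.426 at E13), and Slc35e1 was slightly higher in coronary cells at both (0.27 ± 0.06, adjusted p = 0.00297 at E17, 0.29 ± 0.04, adjusted p = 9.02e-05 at E13, edgeR). Slc35a3, which carries UDP-N-acetylglucosamine, rose in coronary cells with stage (0.57 ± 0.10, adjusted p = 0.000318, edgeR). Slc35e3 fell in coronary cells by 1.61 ± 0.10 (adjusted p = 1.39e-07) and in endocardial cells by 0.58 ± 0.09 (adjusted p = 0.00051) in edgeR, with 12.4 and 11 CPM in E17 coronary, 22.5 and 18.7 CPM in E17 endocardial, 32.6, 38.1, 35.5 and 36.7 CPM in E13 coronary and 29.3, 30.7, 31.1 and 32.6 CPM in E13 endocardial libraries. Slc35e4 did not pass between populations at E17 (−0.20 ± 0.15, adjusted p = 0.3), was higher in coronary cells at E13 (1.38 ± 0.11, adjusted p = 5.03e-07) and changed by −1.58 ± 0.19, adjusted p = 6.08e-05 (edgeR). Slc35f1 reached 5 CPM only in E17 coronary libraries, at 6.86 and 9.52 CPM, against 0.709 and 0.324 CPM in E17 endocardial, 2.51 to 3.46 CPM in E13 coronary and 0.0515 to 0.263 CPM in E13 endocardial libraries.

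Among 5 vitamin carriers, Slc23a2, the sodium-coupled importer of ascorbate, was higher in coronary cells at both stages. For Slc23a2, levels at E17 were 90.5 and 95.4 CPM in coronary and 45.7 and 47.8 CPM in endocardial libraries. Levels at E13 were 68.1, 60.2, 56.5 and 57.1 CPM in coronary and 47.5, 45.3, 48.3 and 45.9 CPM in endocardial libraries. Coronary and endocardial libraries did not overlap, and the edgeR difference was 0.99 ± 0.08, adjusted p = 1.16e-06 at E17, 0.37 ± 0.06, adjusted p = 0.000172 at E13 and 0.62 ± 0.10, adjusted p = 0.000669 between the stages. The reduced folate carrier Slc19a1 had 3.63 and 3.06 CPM in E17 coronary, 5.95 and 7 CPM in E17 endocardial, 10.1 to 12.9 CPM in E13 coronary and 7.93 to 9.7 CPM in E13 endocardial libraries. The thiamine carrier Slc19a2 fell in coronary cells with stage by 0.74 ± 0.16 (adjusted p = 0.0019) (edgeR). The riboflavin carrier Slc52a2 also fell there, by 0.52 ± 0.15 (adjusted p = 0.0129), a call lost without E17 coronary replicate 2 (adjusted p = 0.096), and did not pass between populations at either stage (−0.26 ± 0.18, adjusted p = 0.236 at E17, 0.13 ± 0.12, adjusted p = 0.387 at E13). Slc5a6, the carrier of biotin and pantothenate, reached 5 CPM in 3 groups, with 5.52 CPM as the mean of E13 coronary and 9.05 CPM as that of E13 endocardial cells. Of 5 organic ion carriers, the carnitine importer Slc22a5 rose in coronary cells with stage (0.66 ± 0.11, adjusted p = 0.000419) and was lower in coronary cells at E13 (−0.57 ± 0.09, adjusted p = 0.000236, edgeR). Slc22a18 was at 5 CPM in endocardial cells alone, with means of 0.48 CPM in E17 coronary, 5.78 in E17 endocardial, 0.918 in E13 coronary and 6.82 in E13 endocardial cells. Slc29a4, a carrier of monoamines, had means of 6.32, 3.81, 11.5 and 5.98 CPM in the same order.

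Slc22a23, an orphan of the organic ion carriers (chromosome 13, 34179158-34345182, minus strand), had the most negative tested difference of all members at both stages. Its level was 17.9 and 14.4 CPM in the E17 coronary libraries and 291 and 315 CPM in the E17 endocardial ones. At the earlier stage, coronary libraries had 56.9, 56, 84.8 and 76.5 CPM and endocardial libraries 522, 518, 529.5 and 545 CPM. Every endocardial library was above every coronary one, and within each population every E13 library was above every E17 library. The edgeR difference was −4.23 ± 0.20, adjusted p = 7.83e-09 at E17 and −2.95 ± 0.13, adjusted p = 4.75e-09 at E13, coronary cells fell by 2.09 ± 0.17 (adjusted p = 1.40e-06) and endocardial cells by 0.80 ± 0.15 (adjusted p = 0.00138), and the change between stages was −1.28 ± 0.22, adjusted p = 0.000778. Per exon length its level was 8.403, 155.4, 38.74 and 281.9 TPM in E17 coronary, E17 endocardial, E13 coronary and E13 endocardial cells. The members whose levels ranked most like it over the 12 libraries were Slc5a6, Slc7a14 and Slc26a6, each with a Spearman rho of 0.96. For Slc16a3 these were Slc1a5 (0.93), Slc25a4 (0.90) and Slc1a2 (0.89). The ranks share libraries and groups and are a description. Another orphan, Slc46a3, was at 12.8 and 17.6 CPM in E17 coronary, 2.02 and 1.88 CPM in E17 endocardial, 4.64 to 8.33 CPM in E13 coronary and 1.35 to 1.84 CPM in E13 endocardial libraries. The orphan Slc22a17 did not pass between populations at E17 (−0.36 ± 0.20, adjusted p = 0.162) and was higher in coronary cells at E13 (1.06 ± 0.14, adjusted p = 3.94e-05, edgeR). The 2 scaffold proteins that tether sodium and proton exchangers went opposite ways between populations at E17. At E13 Slc9a3r2 did not pass in edgeR (0.22, adjusted p = 0.0856), while it passed in DESeq2's test (adjusted p = 0.0336). Slc9a3r2 was higher in coronary cells at E17 (1.11 ± 0.15, adjusted p = 4.39e-05) and rose there with stage (1.13 ± 0.12, adjusted p = 1.03e-05, edgeR), with 447 and 547 CPM in E17 coronary, 234 and 225 CPM in E17 endocardial, 252, 229, 178 and 248 CPM in E13 coronary and 192, 178, 207 and 203 CPM in E13 endocardial libraries. Slc9a3r1 was lower in coronary cells at both stages (−0.62 ± 0.13, adjusted p = 0.00175 at E17, −1.21 ± 0.09, adjusted p = 2.67e-07 at E13, edgeR), with 20.1 and 15.8 CPM in E17 coronary, 28.4 and 26.4 CPM in E17 endocardial, 24.1, 18, 21.7 and 21.9 CPM in E13 coronary and 48.8, 51.3, 49 and 48.1 CPM in E13 endocardial libraries.

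Further members were as follows. Slc44a2, a choline carrier-like protein, had means of 233.2, 232.1, 178 and 209.3 CPM in E17 coronary, E17 endocardial, E13 coronary and E13 endocardial cells, did not pass between populations at E17 (0.01 ± 0.07, adjusted p = 0.942) and was lower in coronary cells at E13 (−0.23 ± 0.05, adjusted p = 0.00114, edgeR). The Golgi sodium and proton exchanger Slc9a8 was lower in coronary cells at both stages (−0.67 ± 0.10, adjusted p = 9.42e-05 at E17, −0.53 ± 0.07, adjusted p = 2.44e-05 at E13, edgeR). The sugar phosphate carrier relative Slc37a3 was lower there as well (−0.54 ± 0.08, adjusted p = 7.17e-05 at E17, −0.23 ± 0.05, adjusted p = 0.00218 at E13, edgeR). Slc10a7 (−0.46 ± 0.08, adjusted p = 0.000397), the lysosomal sialic acid carrier Slc17a5 (−0.40 ± 0.09, adjusted p = 0.00159) and Slc22a15 (−0.53 ± 0.12, adjusted p = 0.00173) were lower in coronary cells at E13 and did not pass at E17 (adjusted p = 0.718, 0.154 and 0.476, edgeR). Slc16a13 was higher in coronary cells at E17 (0.63 ± 0.13, adjusted p = 0.00135) and at E13 (0.24 ± 0.09, adjusted p = 0.034, edgeR). The E13 call was lost with the batch block (adjusted p = 0.0522) and without E13 endocardial replicate 1 (adjusted p = 0.0816), among other settings. The mitochondrial glycine carrier Slc25a38 rose with stage in endocardial cells (0.57 ± 0.10, adjusted p = 0.000884, edgeR). The fatty acid transport protein Slc27a4 passed in none of the 5 comparisons. Of members at 5 CPM in only some groups, the lysosomal peptide and histidine carrier Slc15a3 reached it in E17 coronary cells alone, with means of 5.776, 1.289, 0.9586 and 0.8788 CPM in the same order of groups, and it shares 28.1% of its exon bases with Tmem132a. The glutamine carrier Slc38a3 had 7.563, 1.833, 5.145 and 3.647 CPM. Slc41a3 of the magnesium carrier family had 9.029, 6.088, 3.472 and 5.393 CPM, and the mitochondrial coenzyme A carrier Slc25a42 had 4.121, 6.923, 2.169 and 5.53 CPM.

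Listed sets of other transporters and related genes were also read. The brain barrier list among them is made of solute carriers and includes members already counted above. For comparison, 26.5% and 26.1% of all genes tested were called higher and lower in coronary cells at E17. At E13 these shares were 30.1% and 29.9%, and for coronary cells at E17 against E13 they were 24.6% and 25.6%. Of 30 tested ATP-binding cassette transporters, 14 were higher and 6 lower in coronary cells at E17, 11 were higher and 9 lower at E13, and 17 were higher and 4 lower in coronary cells at E17 than at E13, with a median coronary stage difference of 0.64 beside −0.02 for all genes tested. Abcb1a, the drug efflux pump of the blood-brain barrier, had 111 and 137 CPM in E17 coronary, 1.78 and 1.48 CPM in E17 endocardial, 5.54 to 11.1 CPM in E13 coronary and 0.0725 to 0.626 CPM in E13 endocardial libraries. It rose in coronary cells by a log2 difference of 4.09 ± 0.23 (edgeR adjusted p = 7.40e-08). Slco2b1, an organic anion carrier known by an SLCO symbol, was higher in coronary cells at E17 (4.40 ± 0.26, adjusted p = 5.34e-08) and at E13 (2.94 ± 0.21, adjusted p = 1.73e-07, edgeR), with 38.2 and 49.3 CPM in E17 coronary against 2.29 and 1.8 CPM in E17 endocardial libraries. Slco2a1, the prostaglandin carrier, was lower in coronary cells at E13 (−1.38 ± 0.12, adjusted p = 1.02e-06, edgeR). Of 26 tested solute carriers known from brain barrier endothelium, 12 were higher and 10 lower in coronary cells at E17, with 11 and 7 at E13. Several of that list were at or near 0 in all groups, with means of at most 0.939 CPM for Slc7a3, 0.255 CPM for Slc1a1 and 0.939 CPM for Slc19a3. Of 30 genes of the amino acid response and the serine pathway, 10 were higher and 11 lower in coronary cells at E17, 16 were higher and 4 lower at E13, and 6 were higher and 14 lower in coronary cells at E17 than at E13. The transcription factor Atf4 was lower in coronary cells at E17 (−0.44 ± 0.14, adjusted p = 0.0184) and higher at E13 (0.41 ± 0.10, adjusted p = 0.00317), and its change passed (−0.85 ± 0.17, adjusted p = 0.0024, edgeR). The E17 call was lost without E17 coronary replicate 1 (adjusted p = 0.0838) or 2 (adjusted p = 0.0712) or E17 endocardial replicate 2 (adjusted p = 0.0948). Slc38a2, Slc1a4 and Slc3a2, which are among its known targets, had changes of −0.89 ± 0.13, −1.39 ± 0.16 and −0.46 ± 0.08 between the stages. Gars, a target as well, was higher in coronary cells at both stages (edgeR, 1.07 ± 0.09, adjusted p = 1.32e-06 at E17, and 1.08 ± 0.07, adjusted p = 5.33e-08 at E13). Slc7a5, a known target too, was also higher at both, as given above. Of this list, 6 had a higher and 14 a lower signed coronary minus endocardial difference at E17 than at E13, beside 16.2% and 16.5% of all genes. Whether Atf4 acts on these genes was not tested.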

How the data were processed

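Polyadenylated RNA of sorted cells was sequenced as single reads from libraries that do not mark strand, per the labels' protocols. The submitters' processing notes name CASAVA 1.8.2, cutadapt 1.3, RSEM 1.2.3 and the build GRCm38. The deposited table holds expected counts per gene, which the authors made with RSEM; 18.3% of its values are not whole, and they were rounded before testing. Symbols were matched for 40254 of 41214 gene IDs and coordinates for 40340. Members were set by unscaled CPM (counts over the column total), and displayed CPM is scaled with TMM factors (0.941 to 1.08). Levels per length divide counts by exon length and sum to 1000000 in each library.

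Genes were filtered with filterByExpr (minimum count 10, minimum total 15), leaving 15171, and 1 edgeR 4.0.16 quasi-likelihood fit of 4 group means over all 12 libraries (R 4.3.3, 8 residual degrees of freedom, biological coefficient of variation 0.126) gave 5 contrasts with Benjamini-Hochberg adjustment and a threshold of 0.05. The difference contrast is coronary minus endocardial at E17 less the same at E13. The fit was also run on counts simulated from the fitted dispersions, with few genes changed and all libraries independent. That setting differs from these data, where many genes were called and libraries of 1 batch were correlated, so it does not cover either. The alternatives were DESeq2 1.42.0 size factors and test, no filter, a batch block, each library left out, and other limits for membership.

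Deviations of the coronary and endocardial library of 1 batch correlated at 0.337 at E17 and at 0.274, 0.628, 0.287 and 0.451 at E13 over 9481 genes, and libraries of different batches at −0.487 to 0.344. With 2 libraries per E17 group the deviations are mirror images, so other pairs had −0.337 by construction. At E13 the deviations within a group cancel out, which pushes other pairs down. The 0.344 of different batches was above the same-batch values of 0.274 and 0.287. The labels give the batch, and libraries were paired by it within a stage. Per gene, the chi-square between replicate libraries was 4.39 to 39.3, so no 2 libraries of a group agree within sampling noise.

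Members, substrate classes and gene lists were chosen with earlier results of these data known. Members were named by rule: the 3 most abundant of each class, all members of classes of 5 or fewer, those with the largest called differences, those with the largest untested differences, and the brain barrier list. All members so named are given except 3, which are not reported here. Slc1a5, Slc25a23, Slc31a1, Slc39a6 and Slc8a1 were added for their roles after their values were seen.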

Additional observations from a re-analysis of the deposited data

Results flagged for a closer look

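A library stood apart from the other 3 of its group, by a gap of over 0.829 of the group's range, in 6 of 220 groups of 4 examined, and chance flags about 1 in 20. Slc38a2 was 379 CPM in E13 coronary replicate 2, against 315 to 320 CPM in the other 3. Slc3a2 was 103 CPM in E13 coronary replicate 1, against 92.4 to 92.6 CPM. Slc45a3 was 2.92 CPM in E13 coronary replicate 1, against 4.78 to 4.89 CPM. Slc39a1 was 117 CPM in E13 coronary replicate 3, against 112 to 113 CPM. Slc5a6 was 10.8 CPM in E13 endocardial replicate 4, against 8.28 to 8.67 CPM, and Slc29a3 was 18.2 CPM in E13 endocardial replicate 2, against 19.8 to 20.1 CPM.

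The log2 difference between coronary and endocardial cells itself changed from stage to stage, by the tested E17 minus E13 contrast in edgeR, for these members among others. As a signed value, coronary minus endocardial, it was higher at E17 for Slc26a10 by 2.63, Slc30a1 by 1.66, Slc9a5 by 1.41, Slc6a6 by 1.10, Slc39a10 by 1.02, Slc9a3r2 by 0.89, Slc31a2 by 0.77 and Slc43a3 by 0.74. The signed value was lower for Slc2a10 (−1.81), Slc16a3 (−1.65), Slc35e4 (−1.58), Slc27a3 (−1.58), Slc38a4 (−1.49), Slc22a17 (−1.42), Slc1a4 (−1.39) and Slc22a23 (−1.28). Its sign gives a direction and not a size. Slc2a10 and Slc22a23 were lower in coronary cells at both stages, so their gap between populations was wider at E17. Slc26a10 was lower in coronary cells at E13 and did not pass at E17. Genotype, tamoxifen and the sort gates also differ between the stages and cannot be told apart from stage.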

How the results depend on the processing

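Over the named members at 5 CPM in all 4 groups and the settings run, 5776 values kept their side of the threshold and direction. A further 177 lost the call, 53 gained it and none reversed. Named members at 5 CPM in only some groups are not part of this tally. Leaving out 1 library at a time, the E17 coronary minus endocardial count of higher members was 39 to 52 and of lower members 55 to 70. At E13 these were 55 to 60 and 68 to 75. For E17 against E13 they were 44 to 55 and 46 to 62 in coronary cells, and 22 to 43 and 16 to 26 in endocardial cells. For the change of the population difference they were 19 to 38 and 40 to 60. With a lone E17 library in an arm, that library is assumed to vary like the other groups. With the replicate block on batch, 117 members were called between populations at E17, 114 of them also without it (117). At E13 it was 133, with 129 of the 131 shared, and for the change of the difference 87, with 82 of the 91 shared. The stage comparisons cannot be blocked, because each batch holds 1 stage. Limits of 2 and 10 CPM gave 214 and 157 members, TMM-scaled CPM gave 188, and a limit met in every library of a group gave 184. For Slc38a4, leaving out E17 coronary replicate 1 gave a coronary stage difference of −3.25 and a change of the population difference of −2.10. The causes were not tested. Low counts limit Slc5a7, Slc24a4 and Slc37a1 in E17 coronary cells, where their totals are 6, 3 and 5 counts, and counting intervals there would cover counting error only.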
